A study of Medicago truncatula with 21 samples.

Results

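A set of 150 nuclear transcripts was followed through seed development in the legume Medicago truncatula, a relative of alfalfa. All 150 were abundant in wild-type seeds at 13 and 24 days after pollination (DAP) and scarce in mature wild-type seeds. They were chosen from 44316 nuclear identifiers among 44473 listed. The levels of the wild-type line R108 chose them: the means plus 1 at 13 and 24 DAP lay within 2-fold of each other, and each was at least 16 times the mature mean plus 1. Of the 1088 identifiers that met these bounds, the 150 with the highest R108 mean at 24 DAP were kept, and they are ranked here by that mean. R108 levels are therefore a description with no test, and the other 938 serve as a comparison.

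The libraries came from whole seeds of R108 and of mutants in which the retrotransposon Tnt1 sits in ABI4, all in the R108 background. Seeds of 13 DAP, of 24 DAP and of full maturity were taken from R108 and R108-abi4-1 (line NF19813), and mature ones alone from R108-abi4-2 (line NF2525). Each of these 7 groups has 3 libraries. All plants grew in a culture room under long days, and no group received a treatment. Each allele is 1 insertion line. The series' design text describes replicates as pools of seeds from separate plants, yet its mutants carry the name of a gene other than ABI4, which title and labels give. The labels were followed here. Should replicates share plants, p-values cover the spread among these libraries alone.

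Legume seeds first build the embryo, then fill it with storage protein and other reserves, and finally lose water and enter a dry, quiescent state. Many transcripts of the growth and filling phases are removed before the seed is dry, while others are stored until germination. ABI4 is known, mainly from Arabidopsis, as an AP2/ERF transcription factor of abscisic acid and sugar signalling in seeds. The files pair no identifier with a gene name, so the roles of the 150 members, the ABI4 transcript and seed marker genes were not examined. For the same reason 4 members are named by identifier and the others by rank.

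Values were taken as normalized read counts, brought to a scale common to the 21 libraries. They are labelled FPKM but behave as normalized read counts, and their normalization is not given. Deposited library totals were 18365151 to 24032451, and between 17700 and 21318 identifiers reached 10 normalized counts in a library. On that reading, levels are not divided by transcript length, and the order of members by level is an order of read counts. Median ratios of libraries to the common reference differed between stages and hardly within one, so a stage and the scale of its values cannot be told apart, and no level was tested between stages. In whole seeds, fewer cells of a type and less RNA per cell cannot be told apart. The 5 transcripts with the highest levels at 24 DAP took 52.8% ± 1.44 of the R108 libraries at that stage (SD, n = 3) and 4.22% ± 2.80 at 13 DAP, which lowers every other transcript's share of a library at 24 DAP.

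The 150 members together made up a sizeable share of the developing-seed libraries and almost none of the mature ones. In R108 they took 8.43, 5.51 and 6.95% of the 3 libraries at 13 DAP, a mean of 6.96% ± 1.46 (SD, n = 3). At 24 DAP they took 2.40, 2.22 and 2.11%, a mean of 2.24% ± 0.145 (n = 3). The mature R108 libraries held 0.0326, 0.0400 and 0.0357%, a mean of 0.0361% ± 0.00372 (n = 3). Every mature library of the series lay far below every developing one. In abi4-1 the share was 4.85% ± 0.0195 at 13 DAP and 2.38% ± 0.149 at 24 DAP (n = 3 each). In mature seeds it was 0.0789% ± 0.0156 in abi4-1 and 0.0866% ± 0.00696 in abi4-2 (n = 3 each). The 3 libraries of each mutant allele all lay above the 3 mature R108 libraries. A few members carried much of the sum: 12 members at 10000 or more in R108 at 24 DAP held 59.1% of the R108 sum at that stage.

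**Figure D1:**
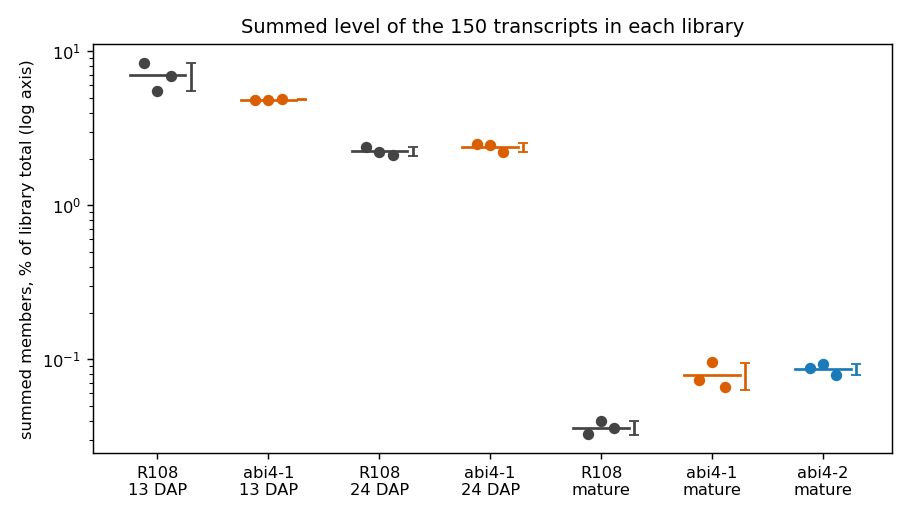
Each point is 1 library, with the summed level of the 150 members as a percentage of the library total on a log axis. Horizontal lines are group means and bars at the side are SD (n = 3). The mature R108 libraries lie between 0.0326 and 0.0400%, below all 6 mature mutant libraries.

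The typical member was abundant in developing R108 seeds and stood at a small remainder in mature ones. The median over members of the R108 group mean was 2133 at 13 DAP, 1842 at 24 DAP and 19.9 in mature seeds. In abi4-1 these medians were 2227, 2124 and 36.5, and in mature abi4-2 the median was 37.9. The 13 DAP level was the higher one in 86 members and the 24 DAP level in 64. The fall from 24 DAP to maturity in R108, as a ratio of means plus 1, had a median of 107 with quartiles of 36.5 and 473. It reached 100-fold in 76 members (3.56% of the 20600 nuclear identifiers at 10 or more at 24 DAP), a share the rule itself raised.

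Members differed in what was left in the dry seed. In mature R108 seeds 98 members kept a mean of at least 10 and 13 members a mean of at least 100, while 19 were at 0 in all 3 libraries. Against an assumed floor of 3 normalized counts per library, those 19 were at least 349-fold to at least 3000-fold lower than at 24 DAP. The floor was set and not measured, so these bounds hold only under it. In mature abi4-1 seeds 112 members kept a mean of at least 10, 41 a mean of at least 100, and 11 were at 0 in all 3 libraries. The corresponding counts in abi4-2 were 110, 37 and 9. A group of 18 members stayed below 3 in each of the 9 mature libraries, and 6 of them were at 0 in all 9. Their R108 level at 24 DAP ranged from 993 to 23407 with a median of 2535, so high members were among those near absent at maturity in all 3 genotypes.

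**Figure D2:**
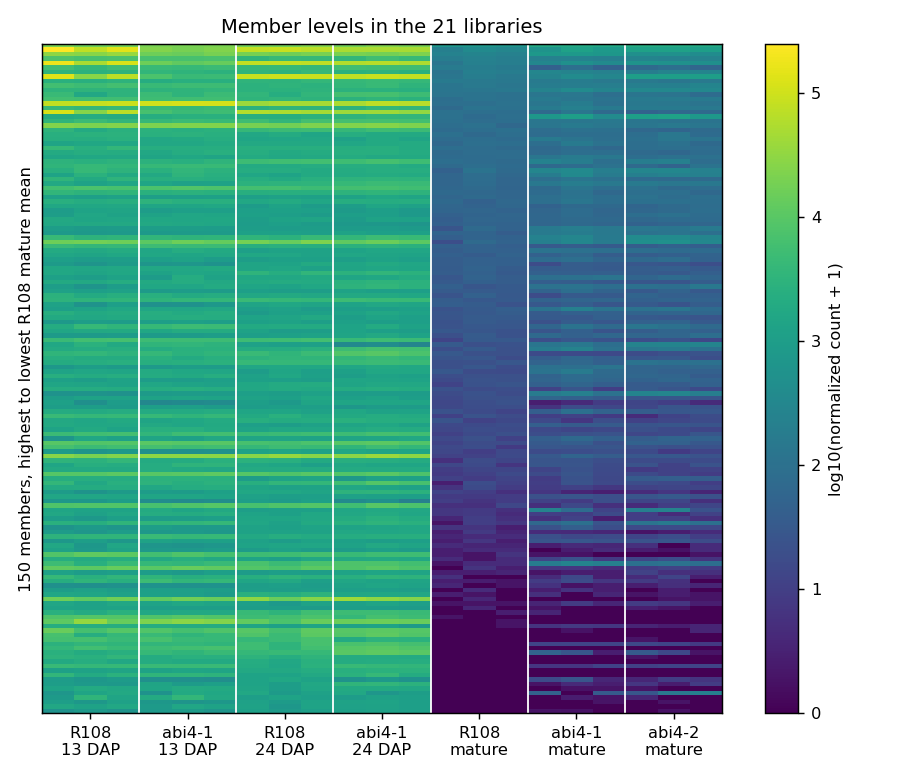
Each row is 1 of the 150 members and each column 1 of the 21 libraries, with colour giving log10 of the normalized count plus 1. Rows run from the highest to the lowest mature R108 mean, and the rows at the bottom include the 19 members at 0 in the R108 mature libraries.

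The bounds of the rule cut through a continuum. Rank 150 had an R108 mean of 993 at 24 DAP and the first identifier outside had 989. The smallest fold over the mature level among members was 16.1, and the largest below the bound at the same level was 15.8. The largest ratio between 13 and 24 DAP among members was 1.998, and the smallest over the bound was 2.02. Membership rests on the common scale: the same rule on the values as deposited shares 29 of its 150 identifiers with this list.

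The fall to maturity was also measured in abi4-1, whose libraries the rule did not use. All 150 members had each abi4-1 library at 24 DAP above each mature abi4-1 library, as did 51.6% of the nuclear identifiers at 10 or more in abi4-1 at 24 DAP. The abi4-1 ratio of 24 DAP to maturity was at least 16-fold in 127 of the 150 members, or 84.7%, beside 12.8% of those 20864 identifiers. At 100-fold the count was 61 members beside a background of 2.67%. The median ratio was 60.02, with quartiles of 23.8 and 362. The whole rule was met in abi4-1 by 93 members, or 62.0%, beside a background of 4.64%. Of the other 57, 27 missed only the 16-fold bound, 26 missed only the 2-fold ratio between 13 and 24 DAP, and 4 missed both. Among the 938 others that met the rule in R108, 682, or 72.7%, fell at least 16-fold in abi4-1.

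The 4 members with the highest R108 level at 24 DAP lie together on chromosome 7, within 6 consecutive identifiers. They include MtrunA17_Chr7g0249161 (rank 1) and MtrunA17_Chr7g0249151 (rank 2). The files give identifiers without coordinates, so chromosome and order are those in the identifier. Together these 4 members took 38.9% ± 14.8 of the summed member level in R108 at 13 DAP and 7.20% ± 1.21 in abi4-1 (SD, n = 3 each). At 24 DAP they took 36.6% ± 3.65 in R108 and 27.4% ± 0.484 in abi4-1. An identifier between them was also abundant, at 33887 in R108 at 13 DAP and 120825 at 24 DAP, and missed the 2-fold ratio. How reads were divided among neighbours with similar sequence is not given in the sources used here, so values within the run are uncertain one by one.

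MtrunA17_Chr7g0249161 had 134838, 27820 and 69726 normalized counts in the R108 libraries at 13 DAP and 7536, 4455 and 4821 in abi4-1. At 24 DAP it had 88767, 96608 and 88740 in R108 and 76186, 88677 and 80896 in abi4-1. In mature seeds it had 132, 195 and 154 in R108, 259.6, 408 and 292 in abi4-1 and 1035, 1041 and 1037 in abi4-2. The genotypes did not overlap at any stage, by a wide gap at 13 DAP and by a narrow one at 24 DAP, and the 3 mature groups stood in separate ranges. The log2 difference of abi4-1 from R108 was -3.55 ± 0.50 (SE) at 13 DAP, with a limma adjusted p of 0.00866. At 24 DAP it was -0.16 ± 0.13 (limma adjusted p = 0.493). In mature seeds it was 0.98 ± 0.15 in abi4-1 (limma adjusted p = 4.77e-05) and 2.71 ± 0.15 in abi4-2 (adjusted p = 1.29e-09).

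MtrunA17_Chr7g0249151 had 248936, 74796 and 145903 normalized counts in R108 at 13 DAP and 25136, 19260 and 23810 in abi4-1. At 24 DAP it had 79700, 89487 and 68785 in R108 and 50486, 51498 and 49930 in abi4-1. In mature seeds it had 216, 389.6 and 300.4 in R108, 581, 1226 and 804 in abi4-1 and 1202, 1245 and 1066 in abi4-2. The abi4-1 libraries lay below all R108 libraries at both developing stages and above them in mature seeds. The log2 difference of abi4-1 from R108 was -2.63 ± 0.39 at 13 DAP (limma adjusted p = 0.0111) and -0.64 ± 0.13 at 24 DAP (adjusted p = 0.00976, and 0.162 in a fit of all 21 libraries). In mature seeds it was 1.496 ± 0.21 in abi4-1 (limma adjusted p = 3.28e-05) and 1.99 ± 0.21 in abi4-2 (adjusted p = 2.32e-06).

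The other 2 members of the run also fell at 13 DAP. The log2 difference was -2.92 ± 0.40 for rank 3 (limma adjusted p = 0.00776) and -3.46 ± 0.46 for rank 4 (adjusted p = 0.00645). They parted in mature seeds. Rank 3 rose by 1.10 ± 0.18 in abi4-1 (limma adjusted p = 0.000122) and by 1.54 ± 0.18 in abi4-2 (adjusted p = 5.74e-06). Rank 4 stood at a log2 difference of -0.07 ± 0.20 in abi4-1 (limma adjusted p = 0.799) and -0.55 ± 0.20 in abi4-2 (adjusted p = 0.0412). The R108 libraries at 13 DAP spread widely for the run, which took 4.50, 1.31 and 2.76% of them, against 0.410, 0.295 and 0.343% of the abi4-1 libraries. The 13 DAP calls of the 2 named members were lost when 1 library was left out: without R108 replicate 3 the adjusted p was 0.0592 for rank 1 and 0.0734 for rank 2, and without abi4-1 replicate 3 it was 0.066 and 0.075. Without abi4-1 replicate 2 it was 0.0552 for rank 2. Without abi4-1 replicate 3 no member was called lower at 13 DAP, so the calls of ranks 3 and 4 were lost there as well.

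**Figure D3:**
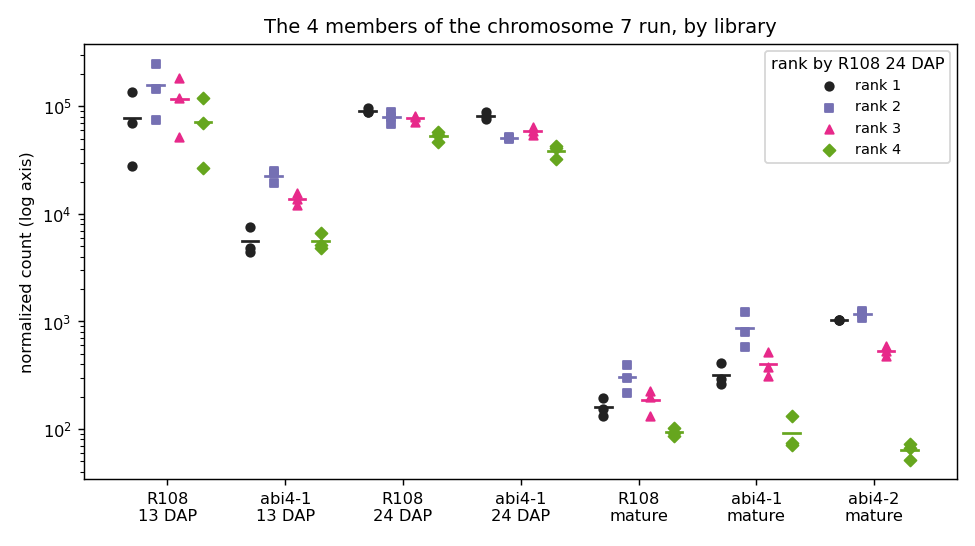
Normalized counts on a log axis for the 4 members of the chromosome 7 run, 1 point per library and 1 line per group mean (n = 3). At 13 DAP the abi4-1 libraries lie below all R108 libraries for each of the 4, and at 24 DAP the genotypes lie close together.

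At 13 DAP few other members were called between abi4-1 and R108, whose libraries of this stage helped choose the members. All 150 were tested, 3 rose (1.36% of all identifiers tested rose) and 8 fell (1.22% of all tested). Called in either direction were 2.58% of all identifiers tested. The median log2 difference was 0.01 over the members and 0.00 over all identifiers tested. Besides the 4 run members, ranks 137, 10, 97 and 143 fell and ranks 131, 34 and 92 rose. Rank 92 rose most, from 867 ± 213 to 1717 ± 226 normalized counts (SD, n = 3 each, limma adjusted p = 0.028). It was picked as the largest rise, so its p-value is no separate support. With the replicate number as a block, which same-numbered libraries gave grounds for at this stage, 9 members rose and 16 fell, beside 2.25% and 1.70% of all identifiers under the same block. With the rule applied to the abi4-1 means, 8 of its 150 identifiers rose and 2 fell, so the balance of directions turned with the genotype that chose the list. Leaving out a library gave between 1 and 26 called members: 26 without R108 replicate 2, 3 without R108 replicate 3, 5 without abi4-1 replicate 1 or replicate 2, and 1 without abi4-1 replicate 3.

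At 24 DAP, calls on the members were more often upward. Of the 150 tested, 30 rose in abi4-1 (9.18% of all identifiers tested rose) and 8 fell (6.02% of all tested), against 15.2% called in either direction among all tested. Of all calls over all identifiers 60.4% were upward, and 73.0% when libraries were scaled by their totals, which gave 36 members that rose and 6 that fell. The median log2 difference was 0.12 over the members and -0.01 over all identifiers tested. Of the other 938 that met the rule, 936 were tested, and 157 rose and 78 fell (median 0.06). Rank 34 rose most, from 4006, 4410 and 4203 normalized counts in R108 to 10152, 11260 and 10528 in abi4-1, a log2 difference of 1.34 ± 0.09 (limma adjusted p = 6.04e-06). Rank 119 fell most, from 1216, 1133 and 1157 to 369, 446 and 289, a log2 difference of -1.69 ± 0.14 (limma adjusted p = 4.56e-05). These 2 members were picked as the extremes after their values were seen. Their p-values and their lack of overlap between genotypes follow in part from that pick and are no separate support. The R108 libraries of this stage also helped choose the members, so a member's difference from R108 is partly set by the choice. In a fit of all 21 libraries 16 members rose and 4 fell, beside 9.76% and 8.95% of all tested.

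In mature seeds many members stood higher in the mutants than in R108. Of the 150, 114 passed the filter of 10 normalized counts in at least 3 libraries, and 36 were not tested. In abi4-1, 68 rose (23.9% of all identifiers tested rose) and 2 fell (22.6% of all tested). In abi4-2, 64 rose (22.6% of all tested) and 4 fell (19.7% of all tested). Either call was given to 46.4% of all tested in abi4-1 and 42.3% in abi4-2. The median log2 difference over the members tested was 0.79 in abi4-1 and 0.66 in abi4-2, beside -0.01 and 0.01 over all identifiers tested. Of the other 938 that met the rule, 242 were tested. Among these, 119 rose and 4 fell in abi4-1 (median 0.90), and 131 rose and 2 fell in abi4-2 (median 1.01). The upward lean was therefore shared by the others that the rule selects and is not particular to the 150. With libraries scaled by their upper quartile, the medians over all tested became 0.11 and 0.13, and 74 members rose and 2 fell in abi4-1, while 70 rose and 1 fell in abi4-2. Of all calls over all identifiers, 51.4% in abi4-1 and 53.5% in abi4-2 were upward, and 68.6% and 73.6% with that scaling. In abi4-1, 49 of the risers were at least 2-fold higher (8.29% of all tested), and in abi4-2 41 were (7.83% of all tested). Some of these passed the filter through their mutant libraries. Among the 98 members with a mature R108 mean of at least 10, 37 rose at least 2-fold in abi4-1 and 29 in abi4-2. At least 2-fold falls numbered 2 and 1 among them. No share of all identifiers under the same R108 bound was computed beside these counts.

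The comparisons of both alleles with R108 share the R108 libraries. In both, 58 members rose (16.7% of all tested) and 1 fell (14.0% of all tested), while 10 rose in abi4-1 alone among the called and 6 in abi4-2 alone. The filter admits a member that is low in R108 when a mutant is high, and 16 of the 114 had an R108 mean under 10. Among the 98 with an R108 mean of at least 10, 56 rose and 2 fell in abi4-1, and 52 rose and 4 fell in abi4-2. Of these 98, 46 rose in both alleles and 1 fell in both. The share of all identifiers under the same R108 bound was not computed, so the counts among the 98 have no matched background. All members, the 98 included, were also chosen for low mature R108 levels. When the rule was applied to the abi4-1 means, so that neither the abi4-2 nor the R108 libraries took part, it gave 150 identifiers of which 85 are members, 56.7% of each list. In abi4-2 against R108, 48 of those 150 rose and 10 fell, with a median of 0.46 over the 112 tested.

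**Figure D4:**
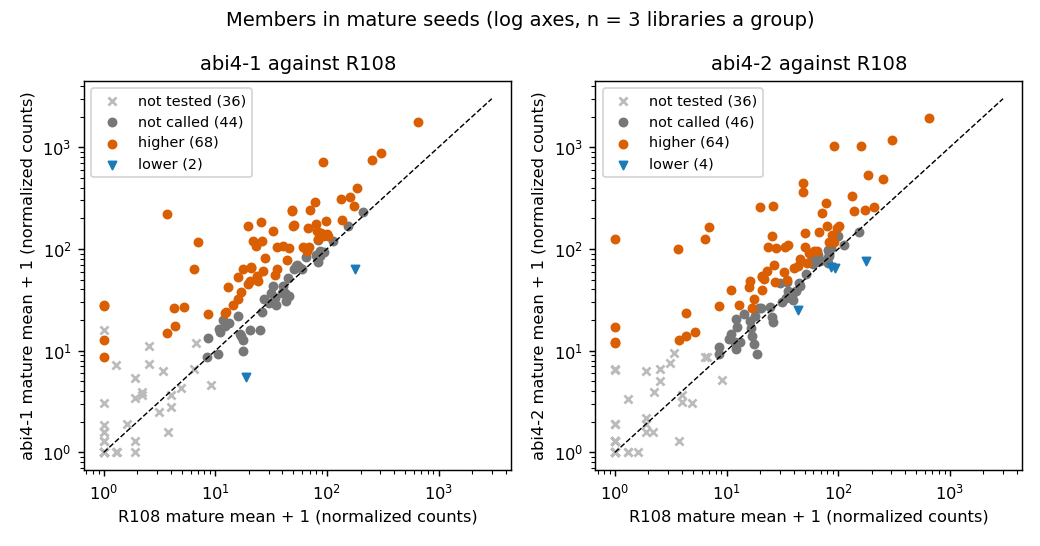
Mature group means plus 1 on log axes, R108 against abi4-1 (left) and abi4-2 (right), n = 3 libraries per group. Points above the dashed line of equality are higher in the mutant: 68 members rose and 2 fell in abi4-1, and 64 rose and 4 fell in abi4-2.

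MtrunA17_Chr3g0120061 (rank 131, chromosome 3) and MtrunA17_Chr1g0153011 (rank 54, chromosome 1) were taken by a rule as the members at 10 or more in mature R108 with the largest rise in both alleles. Their mature differences are large by this choice, so the p-values at maturity describe the picked values and are no separate support. MtrunA17_Chr3g0120061 had 16.9, 22.3 and 17.3 normalized counts in mature R108, 173, 222 and 107.8 in abi4-1, and 270.1, 297 and 198 in abi4-2. Its mature log2 difference from R108 was 3.04 ± 0.22 in abi4-1 (limma adjusted p = 2.73e-08) and 3.68 ± 0.22 in abi4-2 (adjusted p = 4.28e-09). All mutant libraries lay above all R108 libraries. At 13 DAP it had 566, 602 and 546 in R108 and 861, 920.5 and 895 in abi4-1, a rise of 0.64 ± 0.08 (limma adjusted p = 0.00456, and 0.0672 in the fit of all 21 libraries). At 24 DAP it had 1133, 985 and 1204 in R108 and 968, 983 and 979 in abi4-1, where the log2 difference was -0.18 ± 0.10 (limma adjusted p = 0.28). The developing level thus stayed between 546 and 1204 in all 12 libraries.

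MtrunA17_Chr1g0153011 had 104, 77.8 and 91.1 normalized counts in mature R108, 720.02, 1049 and 397 in abi4-1, and 1092, 1213 and 753 in abi4-2. The mutant libraries did not overlap R108, and they spread more than the R108 libraries. Its mature log2 difference from R108 was 2.88 ± 0.25 in abi4-1 (limma adjusted p = 1.94e-07) and 3.45 ± 0.25 in abi4-2 (adjusted p = 3.33e-08). At 13 DAP it had 2028, 2197 and 2052 in R108 and 2335, 2654 and 2599.8 in abi4-1, a log2 difference of 0.27 ± 0.09 (limma adjusted p = 0.186). At 24 DAP it had 2449, 2452 and 2955 in R108 and 3285, 3686 and 3482 in abi4-1, a rise of 0.42 ± 0.10 (limma adjusted p = 0.0173, and 0.227 in the fit of all 21 libraries). That 24 DAP call was lost without R108 replicate 1 (limma adjusted p = 0.0725) or 2 (0.05) and without abi4-1 replicate 2 (0.0664) or 3 (0.0615).

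Other members, picked after their values were seen as the extremes, show the span in mature seeds. Rank 19 stood farthest above R108 in abi4-1: it had 0.92, 3.59 and 3.58 normalized counts in R108, 180.2, 268 and 210.01 in abi4-1 and 96.3, 109 and 89.5 in abi4-2. It passed the filter through its mutant libraries, so these values are given with no test. Rank 8, the member with the highest mature R108 level, had 677, 667 and 618 in R108, 1828, 1776 and 1713 in abi4-1 and 2058, 1983 and 1830.2 in abi4-2. Both members were higher in every mutant library than in every R108 library. Rank 38 was the 1 member that fell in both alleles, from 171, 191 and 168 in R108 to 47.0, 91.6 and 49.4 in abi4-1 and 72.6, 93.1 and 59.0 in abi4-2. Its log2 differences were -1.55 ± 0.22 (limma adjusted p = 2.94e-05) and -1.25 ± 0.22 (adjusted p = 0.000258).

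Of the 58 members that rose in both alleles at maturity, 40 were called neither at 13 nor at 24 DAP. The same held for 76.5% of the 2602 identifiers that rose in both alleles and were tested at these stages. Among the 112 members at 10 or more in mature abi4-1, 77 were highest in abi4-1 replicate 2. The 5 transcripts with the highest 24 DAP levels also held a larger share of the mature mutant libraries, 0.239% ± 0.00296 in R108, 0.518% ± 0.0428 in abi4-1 and 0.721% ± 0.0810 in abi4-2 (SD, n = 3 each). The part of either in the members' rise was not tested.

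The 2 alleles were compared directly in mature seeds, in libraries the rule did not use. Of the 114 members tested, 12 were higher in abi4-1 (8.76% of all identifiers tested were) and 5 were higher in abi4-2 (9.58% of all tested were lower in abi4-1), 17 in all beside 18.3% of all tested. The split of directions was not stable: leaving out a library gave 5 to 12 higher and 4 to 13 lower in abi4-1, and a list chosen with an 8-fold in place of a 16-fold bound gave 13 higher and 17 lower. The median log2 difference of abi4-1 from abi4-2 was 0.11 over the members and -0.02 over all identifiers tested. MtrunA17_Chr7g0249161 was lower in abi4-1 by a log2 difference of -1.72 ± 0.15 (limma adjusted p = 1.92e-06). For MtrunA17_Chr3g0120061 the difference was -0.64 ± 0.22 (limma adjusted p = 0.055), for MtrunA17_Chr1g0153011 -0.58 ± 0.25 (adjusted p = 0.123), and for MtrunA17_Chr7g0249151 -0.49 ± 0.21 (adjusted p = 0.122). Each of these 3 passed the threshold without abi4-1 replicate 2, with adjusted p of 0.0177, 0.0162 and 0.014. MtrunA17_Chr3g0120061 passed it in 5 alternatives in all, at a limma adjusted p of 0.0103 to 0.0423, and MtrunA17_Chr7g0249151 in 2.

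Whether the abi4-1 difference from R108 itself changed between stages was tested as a difference of differences. From 13 to 24 DAP it moved upward in 16 members (3.96% of all identifiers tested) and downward in 3 (2.58% of all tested), 19 in all beside 6.54% of all tested. The rule held the R108 levels of these stages within 2-fold of each other, so the R108 side of this difference is set by the choice. Under the replicate block the counts were 25 and 7, beside 5.10% and 4.07% of all tested, and in the fit of all 21 libraries 9 and 1, beside 4.60% and 3.98%. With the rule on values as deposited, 10 of its 150 identifiers moved upward and 11 downward. Leaving out a library gave 10 to 31 called members: 31 without R108 13 DAP replicate 2, 10 without R108 13 DAP replicate 3 and 12 without abi4-1 13 DAP replicate 2. For MtrunA17_Chr7g0249161 the difference moved by 3.39 ± 0.60 on the log2 scale (limma adjusted p = 0.00463). For MtrunA17_Chr7g0249151 it moved by 1.99 ± 0.49 (limma adjusted p = 0.029), a call lost, at an adjusted p of 0.0579 to 0.078, when R108 13 DAP replicate 3, abi4-1 13 DAP replicate 2 or 3, R108 24 DAP replicate 1 or any abi4-1 24 DAP library was left out. Rank 119 moved the other way, by -2.39 ± 0.26 (limma adjusted p = 0.000207): in abi4-1 it stood above R108 at 13 DAP, at 3329 against 2097, and below it at 24 DAP. It was picked as the largest downward move, so its p-value is no separate support.

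From 24 DAP to maturity the abi4-1 difference moved upward in 56 of the 150 members (11.3% of all identifiers tested) and downward in 9 (9.08% of all tested), 65 in all beside 20.4% of all tested. The median shift was 0.52 over the members and 0.03 over all tested. Of the other 938 that met the rule, 936 were tested, and 165 moved upward and 20 downward (median 0.53). Upward calls were 55.4% of all calls over all identifiers, and 67.3% with upper-quartile scaling, where the median over all tested was 0.12. The members' upward lean depended on which genotype chose the list: with the rule applied to abi4-1, 34 of 150 moved upward and 25 downward, with a median of -0.03. MtrunA17_Chr3g0120061 moved by 3.21 ± 0.29 (limma adjusted p = 1.15e-05) and MtrunA17_Chr1g0153011 by 2.46 ± 0.35 (adjusted p = 0.000358). Both were picked for their mature rise, which sets part of this shift. MtrunA17_Chr7g0249151 moved by 2.14 ± 0.33 (limma adjusted p = 0.000617) and MtrunA17_Chr7g0249161 by 1.14 ± 0.22 (adjusted p = 0.00262, and 0.103 in the fit of all 21 libraries). Rank 38, picked for its mature fall, moved downward by -2.01 ± 0.26 (limma adjusted p = 0.000181).

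**Figure D5:**
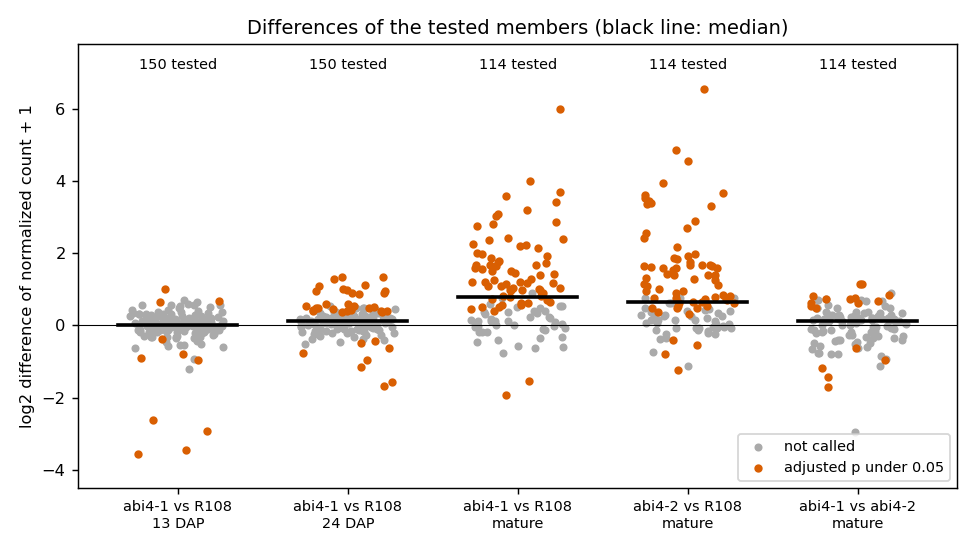
Log2 differences of the members tested in each comparison, 1 point per member, with orange for a limma adjusted p under 0.05 and a black line at the median. The medians are 0.01 at 13 DAP, 0.12 at 24 DAP, 0.79 and 0.66 for abi4-1 and abi4-2 against R108 in mature seeds, and 0.11 between the alleles.

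The members lie on all 8 chromosomes. Chromosome 1 holds 27 of them, 18.0% beside 13.9% of all nuclear identifiers and 15% of the 2760 at or above the 24 DAP level of rank 150. Chromosome 6 holds 9, 6.0% beside 7.997% and 4.93%. Chromosomes 2 to 5 hold 15, 19, 24 and 21, and chromosomes 7 and 8 hold 17 and 18. Of the 150, 12 (8.0%) lie within 5 identifiers of another member, in 5 runs. The share with a neighbour this close was 30.0% in the other 938 that met the rule and 55.7% in the 2760. Sets of different size do not compare directly in this share. Besides the run of 4, there are 2 further pairs on chromosome 7, 1 on chromosome 1 and 1 on chromosome 3. The chromosome 1 pair, ranks 12 and 16, is near absent in mature seeds: rank 16 was at 0 in every mature group and rank 12 had a mean of 0.302 in R108 and 0 in both mutants. Both stood far higher in developing R108 seeds, at 20176 and 4328 at 13 DAP and 11469 and 7870 at 24 DAP.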

How the data were processed

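The 21 seed RNA libraries fall into 7 groups of 3 by their sample labels. Per the labels' protocols, libraries were made from enriched mRNA by random priming and read on a BGISEQ-500. The submitters' processing notes name Salmon, with no version, and the sources used here do not give build, annotation, strand setting or normalization. Although labelled FPKM, the deposited values are a signal that behaves as normalized read counts, on a scale that differs by stage. Each library was divided by its median ratio to the geometric mean over the 18214 identifiers above 0 in all 21; these factors ran from 1.55 to 1.58 (13 DAP), 0.552 to 0.560 (24 DAP) and 1.11 to 1.13 (mature). Whole reads were not recovered from the low values, so no count model was used and no counting interval is given.

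Differences were tested with limma 3.58.1 in R 4.3.3 (eBayes with trend) on log2(value + 1), which understates changes of low transcripts. Identifiers had to reach 10 in 3 or more of the libraries fitted, and Benjamini-Hochberg p-values were adjusted over all identifiers tested, with a threshold of 0.05. "Rose" and "fell" refer to that threshold. The fits used 6 libraries at 13 or 24 DAP, 9 in mature seeds and 12 for differences between stages. The procedure was run on simulated counts with a fixed spread and independent libraries. That run checked the working of the code and is no support for the calls. Deviations from group means of same-numbered libraries correlated at 0.173 to 0.318 at 13 DAP, above 0.1 for all 3 pairs. At 24 DAP 2 of 3 pairs were above 0.1, and in mature seeds 1 of 9. The reported fits hold no pairing at any stage, and the replicate number as a block was an alternative. No identifier was found in the gene table of MtrunA17r5.0-ANR, so no gene lists were used. Named members are the 2 with the highest R108 level at 24 DAP and the 2 with a mature R108 mean of at least 10 and the largest smaller rise of both alleles. The members and lists were chosen with earlier results of these data known.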

Additional observations from a re-analysis of the deposited data

Results flagged for a closer look

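Several results differed between groups under the same contrast by a test of that difference. In mature seeds, 17 of the 114 members tested differed between abi4-1 and abi4-2, a called share no higher than the 18.3% of all identifiers tested. Among them was MtrunA17_Chr7g0249161, lower in abi4-1 by a log2 difference of -1.72 between group means, with all 3 abi4-1 libraries below every abi4-2 library. Between 13 and 24 DAP, the abi4-1 difference from R108 changed in 19 members, beside 6.54% of all tested. On the log2 scale the change was 3.39 for MtrunA17_Chr7g0249161, 1.99 for MtrunA17_Chr7g0249151 and -0.82 for MtrunA17_Chr3g0120061, whose call ended in a fit of all 21 libraries (limma adjusted p = 0.0582). Between 24 DAP and maturity, the abi4-1 difference changed in 65 members, beside 20.4% of all tested. With the rule applied to abi4-1, 34 moved upward and 25 downward. The change was 1.14 for MtrunA17_Chr7g0249161 (limma adjusted p = 0.103 in the fit of all 21 libraries), 2.14 for MtrunA17_Chr7g0249151, 3.21 for MtrunA17_Chr3g0120061 and 2.46 for MtrunA17_Chr1g0153011. MtrunA17_Chr3g0120061 and MtrunA17_Chr1g0153011 were picked for their mature rise.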

How the results depend on the processing

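The share of the 150 members called was 7.33% at 13 DAP, 25.3% at 24 DAP, 46.7% in mature abi4-1, 45.3% in mature abi4-2, 11.3% between alleles, 12.7% for the change from 13 to 24 DAP and 43.3% for that from 24 DAP to maturity. In the same order, 2.58, 15.2, 46.4, 42.3, 18.3, 6.54 and 20.4% of all identifiers tested were called. The 3 mature shares count the 36 untested members as not called. Of the 114 tested, 59.6% rose and 1.75% fell in abi4-1, 56.1% and 3.51% in abi4-2, and 10.5% and 4.39% were higher and lower in abi4-1 than in abi4-2. Among the alternatives for counts and levels, 183 stayed within 1.5 times of the reported count or within 1 SD of the reported level and 37 did not, and no called difference of a named member changed sign. The cause was not tested. The balance of directions over the members did turn: 3 higher and 8 lower at 13 DAP became 8 and 2 with the rule applied to abi4-1, 12 and 5 between alleles became 13 and 17 under an 8-fold rule, and 16 and 3 for 13 to 24 DAP became 10 and 11 with the rule on values as deposited. One fit of all 21 libraries gave 13.3% at 24 DAP and 6.67% for 13 to 24 DAP. The replicate block gave 16.7% at 13 DAP and 21.3% for 13 to 24 DAP, and moved no other share by over 1.5 times. Leaving out a library gave 0.667 to 17.3% at 13 DAP and 6.67 to 20.7% for 13 to 24 DAP. It gave 20.7 to 30.7% at 24 DAP, 42.0 to 46.0% in mature abi4-1, 36.7 to 42.7% in mature abi4-2, 8.0 to 12.7% between alleles and 36.0 to 44.7% for 24 DAP to maturity.

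An 8-fold rule gave 20.0% between alleles. The rule on values as deposited gave 13.3% at 13 DAP, 30.0% in mature abi4-1 and 28.0% in mature abi4-2, where 71 of its 150 identifiers were tested. Of those tested, 59.2% rose in abi4-1 and 54.9% in abi4-2, beside 59.6% and 56.1% of the members tested. The rule applied to abi4-1, chosen after seeing the data, gave 46.7% at 24 DAP and 22.7% for 13 to 24 DAP. The summed share of the library under the rule on values as deposited was 1.21 and 1.25% in R108 at 13 and 24 DAP, 0.994 and 1.32% in abi4-1, and 0.0242, 0.0533 and 0.0775% in mature R108, abi4-1 and abi4-2. Under the 8-fold rule it was 5.41% in abi4-1 at 13 DAP, 2.45 and 2.63% in R108 and abi4-1 at 24 DAP, and 0.0855, 0.133 and 0.142% in the mature groups. For the 300 highest it was 5.75% in abi4-1 at 13 DAP, 2.52 and 2.69% at 24 DAP, and 0.0471, 0.0979 and 0.105% in the mature groups. The 36 members not tested in mature seeds lay under the filter. Whole reads were not recovered, so the level that depth could show is unknown.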
